A study of Mus musculus with 6 samples.

Results

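Accessible chromatin was described at 10 genes for enzymes and partners that write, read or erase methyl marks of active chromatin on histone H3: Kmt2a, Kmt2d, Men1, Psip1, Dot1l, Mllt1, Ash2l, Wdr5, Kdm1a and Rcor1. The genes were taken by symbol from the RefSeq annotation of mm10 (GRCm38.p6), 10 of 49554 genes on chromosomes 1 to 19 and X. Every called peak that overlapped one of them, or the 10 kb on either side, was kept. Merging overlapping peaks across libraries gave 43 regions in these windows, of 84592 in all.

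The data are ATAC-seq peak lists, in which the transposase Tn5 marks open DNA. Hematopoietic stem cells were sorted from bone marrow of C57BL/6 mice aged 12 weeks, as lineage-negative cells that carry Sca-1, c-Kit and CD150 and lack CD48, about 20000 cells per the labels. The Dek_cKO group had 3 libraries from Dekfl/fl,Tie2-Cre mice, in which the Tie2 promoter drives Cre in blood and endothelial cells. The Dek_fl group had 3 libraries from Dekfl/fl mice without the transgene, so both groups carried floxed Dek, the gene of a chromatin-bound nuclear protein. The n of 3 per group follows the sample labels; the submitters' design description mentions only duplicate sequencing. Whether the 3 libraries of a group came from separate animals is not in the labels, so p-values measure only the spread between libraries, which may be technical.

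The number of reads behind each peak is unknown, so a region without a call may still be open, and no counting interval can be given. For replicates 1, 2 and 3, list lengths were 70756, 73173 and 27170 peaks in Dek_cKO and 52451, 71555 and 23813 in Dek_fl. Both replicate 3 lists are shorter, had a higher threshold (lowest −log10 p of 5.02 in Dek_cKO and 5.07 in Dek_fl, against 2.87 to 3.13 in the other 4 lists) and stand apart throughout, so values are given with and without them. Fold is the authors' enrichment of a peak summit over local background in its own list. Percentiles give the percent of peaks of the same list with that fold or less, and only these are set side by side between libraries. Of the 8 stem cell marker genes, Kit, Procr, Mecom and Hlf had a peak at the start in all 3 Dek_cKO libraries, and Kit, Klf1 and the endothelial gene Kdr in all 6. Ly6a, which encodes Sca-1, had one in 0 Dek_cKO libraries and 1 Dek_fl library. Among T cell, B cell, myeloid, erythroid and endothelial marker genes, Cd3e, Cd3g, Cd8a, Cd79a, Ms4a1, Ly6g, Elane, Hba-a1 and Cdh5 had none in any library, and Mpo, Csf1r and Pecam1 had one in some.

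Kmt2a (MLL1) and Kmt2d (MLL4) are large methyltransferases that act on lysine 4 of histone H3, Kmt2a mainly at promoters and Kmt2d mainly at enhancers. Wdr5 and Ash2l are core subunits shared by these complexes, and menin (Men1) with LEDGF (Psip1) tethers Kmt2a to chromatin. Dot1l methylates another lysine of histone H3 in transcribed genes and is recruited through partners such as ENL (Mllt1), an acyl-lysine reader. Kdm1a (LSD1) removes methyl groups from lysine 4, and Rcor1 (CoREST) is the scaffold that lets it act on nucleosomes. Kmt2a is needed in mice to maintain stem cells of the blood, and fusions of its human counterpart, MLL, cause leukemias that depend on menin and DOT1L.

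Promoter sequences show where the peaks lay relative to annotated starts. The RefSeq promoter table (GRCm38.p6) held windows, from 250 bases before to 50 after a start, for 8 of the 10 genes (Psip1 and Ash2l are named only). Of these, 4 are printed: Dot1l, where all 6 summits fell in the window and differed between the groups; Men1, where all 6 also did; Kmt2a, where the peak began inside the window; and Kmt2d, where it began upstream of it. Capitals mark matches on either strand to the motifs searched, which were the CCAAT box, the GC box GGGCGG, the ETS-type site CCGGAAG, the E-box CACGTG, the CRE palindrome TGACGTCA, and the NRF1 and YY1 motifs in their longer forms. Each window is read 5′ to 3′ in the direction of the gene.
Dot1l, chr10:80754953-80755252, plus strand: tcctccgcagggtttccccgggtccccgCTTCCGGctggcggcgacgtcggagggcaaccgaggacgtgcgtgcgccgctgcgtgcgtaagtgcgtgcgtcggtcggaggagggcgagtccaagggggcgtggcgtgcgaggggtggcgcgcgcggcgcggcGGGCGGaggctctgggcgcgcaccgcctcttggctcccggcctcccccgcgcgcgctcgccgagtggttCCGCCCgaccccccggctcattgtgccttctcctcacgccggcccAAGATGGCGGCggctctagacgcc
Men1, chr19:6334729-6335028, plus strand: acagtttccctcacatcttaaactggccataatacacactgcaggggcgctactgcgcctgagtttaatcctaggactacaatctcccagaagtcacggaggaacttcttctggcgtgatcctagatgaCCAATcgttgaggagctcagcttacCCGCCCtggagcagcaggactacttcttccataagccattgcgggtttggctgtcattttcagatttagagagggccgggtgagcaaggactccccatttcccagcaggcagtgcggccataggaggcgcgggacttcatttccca
Kmt2a, chr9:44881240-44881539, minus strand: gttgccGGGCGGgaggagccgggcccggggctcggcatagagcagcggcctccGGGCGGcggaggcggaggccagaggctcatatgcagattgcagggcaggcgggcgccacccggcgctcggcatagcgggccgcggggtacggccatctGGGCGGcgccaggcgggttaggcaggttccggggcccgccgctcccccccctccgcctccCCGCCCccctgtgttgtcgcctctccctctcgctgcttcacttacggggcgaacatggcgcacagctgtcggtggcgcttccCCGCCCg
Kmt2d, chr15:98871156-98871455, minus strand: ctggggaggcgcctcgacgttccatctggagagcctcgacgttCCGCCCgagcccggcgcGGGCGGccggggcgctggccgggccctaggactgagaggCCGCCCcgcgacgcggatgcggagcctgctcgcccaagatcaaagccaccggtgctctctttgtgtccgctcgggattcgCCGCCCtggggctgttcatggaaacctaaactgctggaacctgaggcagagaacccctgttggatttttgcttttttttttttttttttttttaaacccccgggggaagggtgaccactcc

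The windows of the 8 genes were rich in CpG, with 11 to 49 CpG dinucleotides each (median 30), against a median of 7 over 32619 promoters of the table. The GC box was found in 7 of the 8 genes (all but Kdm1a) and in 35.9% of all promoters, and the CCAAT box in 4 (Men1, Mllt1, Kdm1a and Rcor1) and 37.6%. The ETS-type site was found in Dot1l and Mllt1 and in 8.92% of all promoters. The YY1 motif was found in Dot1l, beginning 26 bp downstream of the start, and in 0.635% of all promoters. The E-box (7.2% of promoters), the CRE palindrome (1.8%) and the NRF1 motif (0.978%) were in none of the 8. Some GC boxes of Mllt1 overlap each other. A match describes letters in a window and not a bound site.

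Nearly all the genes were open at their start in both groups. A peak lay within 1 kb of a start in all 6 libraries for 9 of the 10 genes, against 50.4% of 21631 protein-coding genes. For Psip1 and Ash2l, as for every protein-coding gene without a window in the promoter table, either annotated gene end was taken as the start. The exception was Ash2l, called in 2 Dek_cKO and 3 Dek_fl libraries, at a region 138 bp from its upper gene end. Its start is not annotated here. Whether that end or the Ash2l gene-body region described below marks the start was not tested. The count depended on the distance allowed. Within 1 kb, a mean of 9.67 genes per Dek_cKO library and 10 per Dek_fl library had a start peak. Within 500 bp the means were 9.33 in Dek_cKO and 8.67 in Dek_fl. Median percentiles of the start peaks within 1 kb were 78.9, 81.8 and 60.2 in Dek_cKO replicates 1, 2 and 3, and 74.8, 74.4 and 66.5 in Dek_fl. Over all protein-coding genes with such a peak they were 76.8, 78.4 and 70.0 in Dek_cKO and 79.8, 75.9 and 69.5 in Dek_fl. The 10 genes differed widely among themselves.

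**Figure D1:**
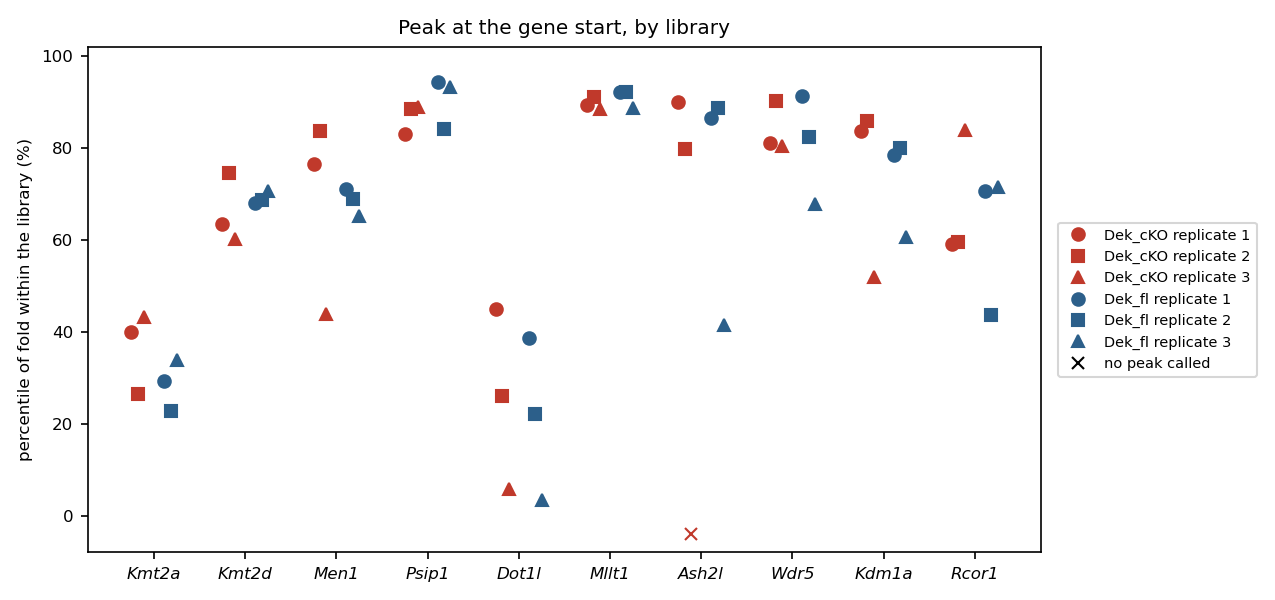
Percentile of fold within its library (y axis, %) of the peak at the start of each gene (x axis), 1 point per library, with Dek_cKO in red left of Dek_fl in blue; a cross marks a library with no peak. Mllt1 lies between 88.5 and 92.2 in every library, whereas Dot1l lies between 3.37 and 45.0.

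Among the methyltransferases, Kmt2a had a wide but shallow start peak. In the region on chromosome 9 from 44881333 to 44883379, the fold was 4.44, 3.91 and 7.74 in Dek_cKO replicates 1, 2 and 3, and 3.55, 3.23 and 6.66 in Dek_fl. The percentiles were 39.9, 26.4 and 43.2 in Dek_cKO and 29.2, 22.8 and 33.9 in Dek_fl. Each Dek_cKO library lay above the Dek_fl library of the same number, but the groups overlapped. By −log10 p the same peaks ranked far higher, at percentiles of 83.0, 70.6 and 69.7 in Dek_cKO and 67.4, 70.3 and 59.2 in Dek_fl. In replicates 1 and 2 the peak ran over 1881 to 2026 bp, whereas both replicate 3 lists split it in 2, with the stronger part 665 bp wide in Dek_cKO and 690 bp in Dek_fl. Relative to the start, with minus for upstream, its summit lay at -128, -167 and -210 bp in Dek_cKO replicates 1, 2 and 3, and at -180, -1316 and -212 bp in Dek_fl. The one far summit, in Dek_fl replicate 2, fell within the same wide peak.

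The start peak of Kmt2d was stronger and displaced. Its region, on chromosome 15 from 98871620 to 98872665, begins 164 bp beyond the upstream edge of the printed window, and no peak of any library overlapped that window. Folds were 6.01, 7.35 and 9.22 in Dek_cKO replicates 1, 2 and 3, and 5.37, 5.73 and 9.81 in Dek_fl, at percentiles of 63.5, 74.6 and 60.2 in Dek_cKO and 68.1, 68.7 and 70.6 in Dek_fl. The Dek_fl values lay inside the Dek_cKO range. All 6 summits lay between -1013 and -819 bp from the start of the promoter table, inside the RefSeq gene, which reaches to 98874077.

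The start of Dot1l, the other methyltransferase, had the peak of lowest mean percentile of the 10. The region, on chromosome 10 from 80754885 to 80755462, was also narrow, with peaks of 354 to 555 bp. Folds were 4.74, 3.88 and 4.79 in Dek_cKO replicates 1, 2 and 3, and 3.93, 3.18 and 4.23 in Dek_fl. Percentiles were 45.0, 26.1 and 5.79 in Dek_cKO and 38.6, 22.1 and 3.37 in Dek_fl, so the Dek_cKO library was the higher one for each replicate number while the groups overlapped. As at Kmt2a, −log10 p placed it higher, at percentiles of 87.1, 76.8 and 53.0 in Dek_cKO and 78.0, 74.0 and 41.6 in Dek_fl.

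The summit at the Dot1l start differed in position between the groups. It lay at -143, -160 and -142 bp from the start in Dek_cKO replicates 1, 2 and 3, and at -79, -80 and -79 bp in Dek_fl. Over all 6 libraries the groups were separated by 62 bp, with the Dek_cKO summits the more upstream ones. The order within replicates 1 and 2 and within replicate 3 follows from this separation and adds nothing to it. This feature was chosen after its values were seen, and 3 libraries against 3 leave an exact permutation test no p below 0.1. Over all 19683 regions called in every library, 5% had summits of one group all on one side of the other's, and 0.813% had a gap at least this large. Of the 20 such regions in the windows of the 10 genes, 2 showed it, the other being a Dot1l gene-body region with a gap of 6 bp. The printed Dot1l window holds both summit positions, upstream of its YY1 match.

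Start peaks of the subunit, reader and tethering genes were high in rank at Mllt1, Psip1 and Wdr5 and lower at Men1. At Mllt1, on chromosome 17 from 56934888 to 56936193, folds were 8.54, 9.60 and 13.2 in Dek_cKO replicates 1, 2 and 3, and 7.73, 7.95 and 12.5 in Dek_fl. Its percentiles, 89.5, 91.1 and 88.5 in Dek_cKO and 92.2, 92.2 and 88.8 in Dek_fl, varied least among the start peaks, and the groups overlapped. At Psip1, on chromosome 4 from 83485337 to 83487108, percentiles were 83.1, 88.5 and 88.9 in Dek_cKO and 94.3, 84.2 and 93.3 in Dek_fl. These groups overlapped through Dek_fl replicate 2. The Psip1 window held no other region in any library. In Dek_cKO replicate 2 and in Dek_fl replicates 1 and 2, this region was split into 2 peaks. The weaker peak had a percentile of 59.6 in Dek_cKO replicate 2, and of 46.3 and 51.8 in Dek_fl replicates 1 and 2.

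Wdr5 had a peak across its start on chromosome 2 from 27514045 to 27515935. Percentiles there were 81.2, 90.2 and 80.5 in Dek_cKO replicates 1, 2 and 3, and 91.4, 82.3 and 67.8 in Dek_fl, again with overlap. At Men1, on chromosome 19 from 6334342 to 6335725, they were 76.6, 83.8 and 43.8 in Dek_cKO and 71.1, 68.8 and 65.3 in Dek_fl. Here Dek_cKO was higher in replicates 1 and 2 and lower in replicate 3. The Men1 summits lay between -99 and -11 bp from the nearest of 3 annotated starts.

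At Ash2l, the peak of highest mean percentile lay inside the annotated gene. The region on chromosome 8 from 25840135 to 25841950, 5744 bp inside the upper gene end, was called in all 6 libraries. Folds were 8.70, 9.74 and 10.1 in Dek_cKO replicates 1, 2 and 3, and 8.19, 8.63 and 11.1 in Dek_fl, with percentiles of 90.5, 91.8 and 68.5 in Dek_cKO and 94.7, 95.8 and 80.6 in Dek_fl. The region at the upper gene end itself, from 25847832 to 25849102, also touches an end of the neighbour Kcnu1. Its percentiles were 90.1 and 79.9 in Dek_cKO replicates 1 and 2, with no call in replicate 3, and 86.5, 88.7 and 41.5 in Dek_fl replicates 1, 2 and 3.

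The demethylase gene Kdm1a and its scaffold gene Rcor1 had start peaks of middle rank. At Kdm1a, on chromosome 4 from 136601164 to 136603129, percentiles were 83.8, 85.8 and 51.9 in Dek_cKO replicates 1, 2 and 3, and 78.5, 79.9 and 60.6 in Dek_fl. At Rcor1, on chromosome 12 from 111037993 to 111039529, they were 59.2, 59.5 and 83.8 in Dek_cKO and 70.7, 43.7 and 71.5 in Dek_fl. The groups overlapped at both genes. Summits lay between -56 and 32 bp from the start at Kdm1a, and between -253 and -152 bp at Rcor1.

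Beyond the starts, the windows held 33 regions: 18 in gene bodies, 2 at the far gene end and 13 in the flanks. Of all 43 regions, 20 were called in every library, against 23.3% of regions overall. Regions that also lie at an end of a neighbouring gene numbered 9, 6 of them called in every library. Among them, the strongest by mean percentile began 24229 bp from the Wdr5 start, at ends of Gm25541 and Gm13421, from 27539376 to 27540985, with percentiles of 98.2, 99.3 and 85.2 in Dek_cKO replicates 1, 2 and 3, and 93.5, 98.1 and 92.8 in Dek_fl. The region at Tmem25 and Ttc36, in the flank of Kmt2a, had 89.8, 86.6 and 67.1 in Dek_cKO and 73.1, 87.8 and 62.9 in Dek_fl. Those by Kmt2d, at Prkag1 and at Rhebl1 with Dhh, lay between 74.5 and 91.4 in Dek_cKO and between 71.4 and 90.5 in Dek_fl, and that by Dot1l, at Plekhj1 and Sf3a2, between 64.8 and 89.1 in Dek_cKO and between 68.2 and 90.9 in Dek_fl. These peaks cannot be assigned to the genes in whose windows they fall.

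**Figure D2:**
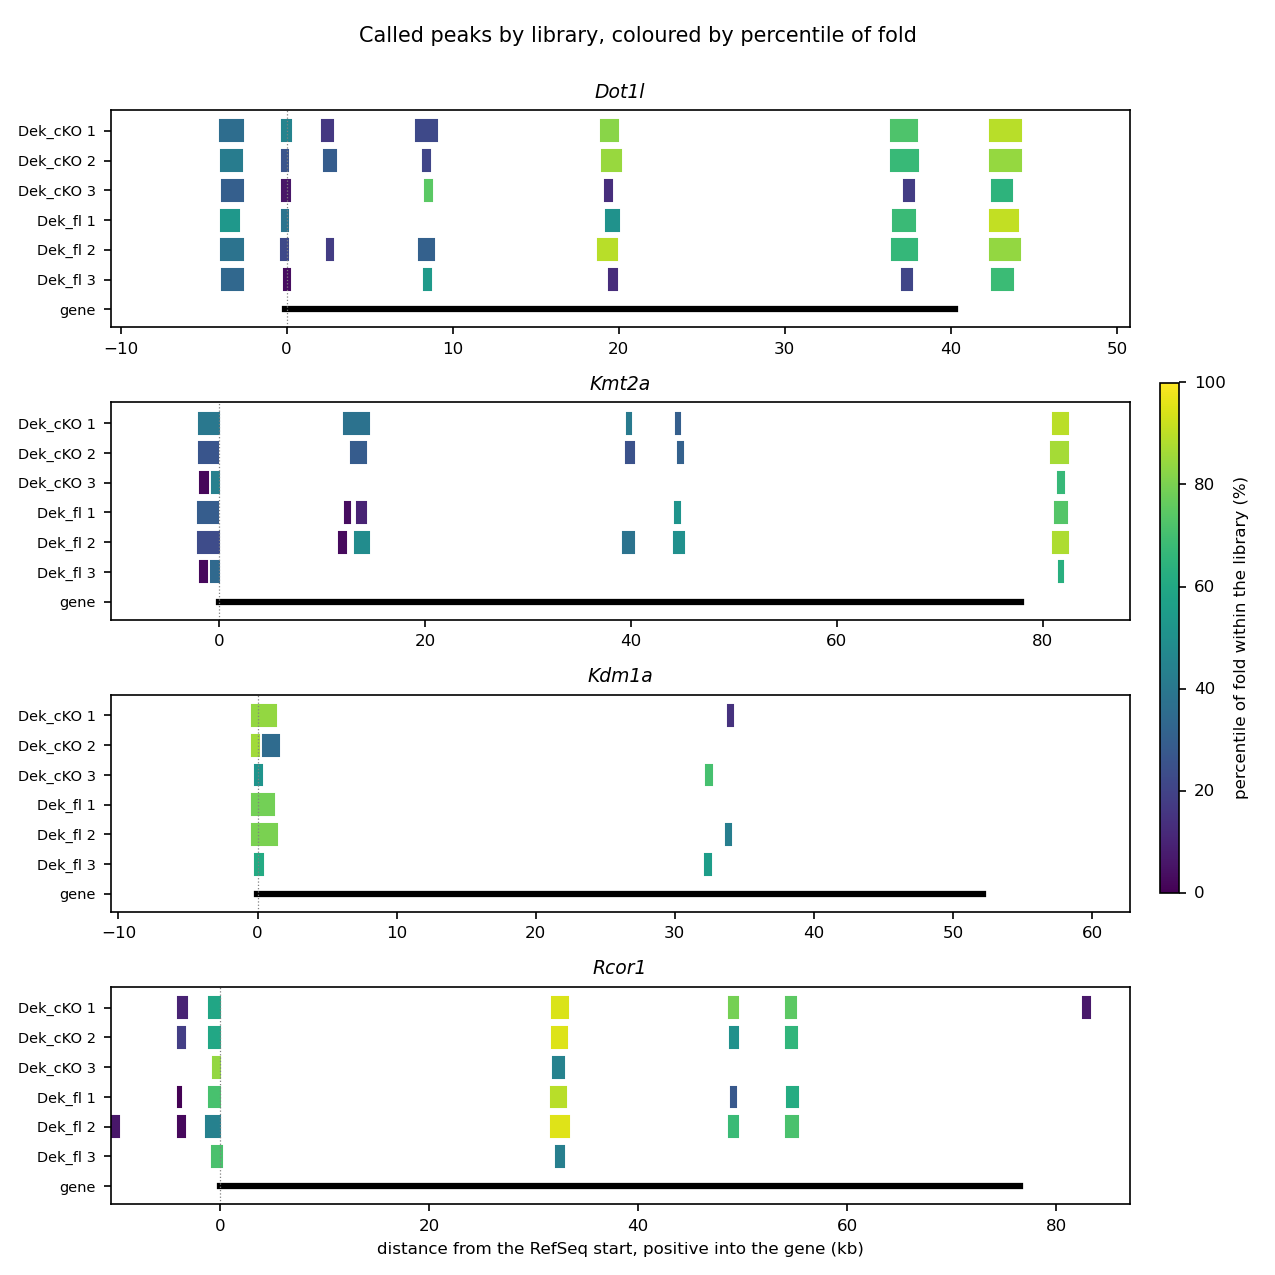
Called peaks at Dot1l, Kmt2a, Kdm1a and Rcor1 by library (rows, Dek_cKO above Dek_fl) against distance from the RefSeq start in kb (x axis), coloured by percentile of fold within the library; the black bar is the gene. Peaks recur at like positions in both groups, while the replicate 3 lists lack many gene-body peaks.

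Peaks without a neighbouring gene end also lay within the bodies of Rcor1, Dot1l and Mllt1, and their role was not tested. In the body of Rcor1, the region from 111071055 to 111072736 had percentiles of 94.2, 94.6 and 43.9 in Dek_cKO replicates 1, 2 and 3, and 89.1, 95.1 and 42.8 in Dek_fl. It thus ranked above the Rcor1 start in replicates 1 and 2 of both groups and below it in replicate 3. Inner Rcor1 regions from 111088047 to 111088930 and from 111093511 to 111094716 were called in replicates 1 and 2 of both groups only, between 50.2 and 79.2 in Dek_cKO and between 27.3 and 71.3 in Dek_fl.

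In the body of Dot1l, the region from 80773982 to 80775321 had percentiles of 82.0, 84.5 and 12.9 in Dek_cKO replicates 1, 2 and 3, and 50.6, 89.4 and 12.7 in Dek_fl. The region from 80791576 to 80793250 had 72.0, 67.5 and 17.7 in Dek_cKO and 67.6, 66.5 and 20.8 in Dek_fl. Both were weak in replicate 3 whatever the genotype. In Mllt1, the gene-body region from 56897277 to 56898366 had percentiles of 75.2 and 84.1 in Dek_cKO replicates 1 and 2, and 76.1 and 66.7 in Dek_fl, and was not called in replicate 3. Another, from 56929087 to 56930260, had 37.6, 55.4 and 4.15 in Dek_cKO replicates 1, 2 and 3, and 8.78 and 52.1 in Dek_fl replicates 1 and 2, and a flank region from 56883640 to 56885264 lay between 31.5 and 47.2 in Dek_cKO and between 25.6 and 33.3 in Dek_fl, in replicates 1 and 2 only.

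Inner regions of the other genes were weaker or fewer. The Kmt2a body held regions from 44836104 to 44837097 and from 44866740 to 44869640, called in replicates 1 and 2 only, with percentiles of 28.7 to 37.8 in Dek_cKO and 9.74 to 51.7 in Dek_fl. The Wdr5 body region from 27529218 to 27530433 had 80.9 and 53.4 in Dek_cKO replicates 1 and 2, and 82.1 and 72.4 in Dek_fl. The Kmt2d body region from 98867361 to 98868032 had 27.6 and 37.5 in Dek_cKO and 15.2 and 20.5 in Dek_fl in those replicates. At Men1, the end shared with Map4k2 (6339970 to 6341651) lay between 52.1 and 55.1 in Dek_cKO and between 56.2 and 65.7 in Dek_fl, and the rank scores described further on overlapped between the groups. Flank regions of Men1, from 6331187 to 6332089 and from 6348657 to 6349961, were called in 3 Dek_cKO and 2 Dek_fl libraries each, with percentiles of only 1.74 and 11.3 in Dek_cKO replicate 3. The flank region of Ash2l, from 25805744 to 25806679, was called in replicates 1 and 2 of both groups.

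Calls did not separate the groups at any region in these windows, in either direction. Over all regions 0.104% were called in 3 Dek_cKO and 0 Dek_fl libraries and 0.00355% in 0 Dek_cKO and 3 Dek_fl libraries. There were 7 regions called in more Dek_cKO than Dek_fl libraries, against 33.1% of all regions, and 2 called in more Dek_fl than Dek_cKO libraries, against 10.2%. The remaining 34 were called in equal numbers. In replicate 3 alone, 3 regions were called in Dek_cKO only (2 in the flanks of Men1 and 1 in Mllt1), against 20.5% of all regions of those lists, and 1 in Dek_fl only (Ash2l), against 9.57%.

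The amount called in the windows overlapped between the groups. The windows held 41, 40 and 26 peaks in Dek_cKO replicates 1, 2 and 3, and 36, 43 and 24 in Dek_fl, that is 35.7 ± 8.4 in Dek_cKO and 34.3 ± 9.6 in Dek_fl (SD, n = 3 each). As a share of each list, these peaks made up 0.0694% ± 0.0228 in Dek_cKO and 0.0765% ± 0.0215 in Dek_fl (SD, n = 3 each). The share of the library's covered bases was 0.0835% ± 0.0301 in Dek_cKO and 0.0853% ± 0.0238 in Dek_fl (SD, n = 3 each). Within replicates 1 and 2 the mean covered share was 0.0662% in Dek_cKO and 0.0725% in Dek_fl. In replicate 3 the order was reversed, at 0.118% in Dek_cKO and 0.111% in Dek_fl. Per gene and library, peak number ranged from 1 to 7 in both groups, with 7 at Dot1l.

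**Figure D3:**
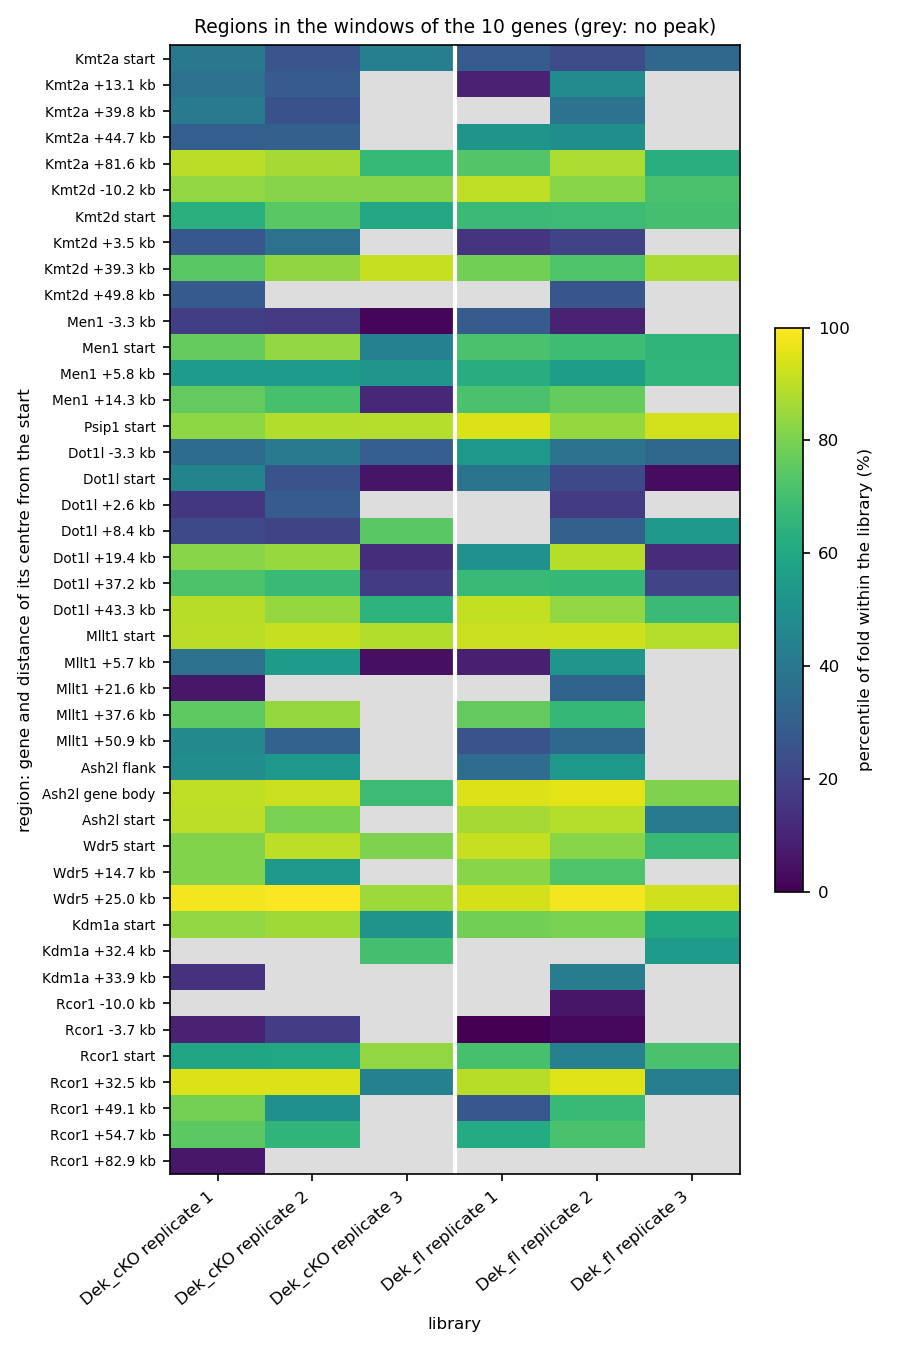
All 43 regions (rows, by gene and distance of the region's centre from the start) in 6 libraries (columns, Dek_cKO left of Dek_fl), coloured by percentile of fold, with grey where no peak was called. Of these, 10 are called in all libraries of replicates 1 and 2 and neither of replicate 3, and 1, in Kdm1a, in both replicate 3 libraries only.

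Calls that followed the replicate number were about as frequent in these windows as elsewhere. Of the 43 regions, 10 (23.3%) were called in all 4 libraries of replicates 1 and 2 and in neither of replicate 3, against 25.7% of all regions, so this count is no result about the 10 genes. The reverse was found once. In the body of Kdm1a, a region on chromosome 4 from 136570076 to 136570529 was called in both replicate 3 libraries alone, as were 0.242% of all regions, with folds of 10.3 in Dek_cKO and 8.26 in Dek_fl and percentiles of 70.5 in Dek_cKO and 55.1 in Dek_fl. A second Kdm1a body region nearby, from 136568560 to 136569050, was called in Dek_cKO replicate 1 (percentile 14.2) and Dek_fl replicate 2 (42.2). In Dot1l, a body region from 80762977 to 80764269, chosen after its values were seen, had percentiles of 22.0, 20.6 and 74.5 in Dek_cKO replicates 1, 2 and 3, and 30.7 and 54.1 in Dek_fl replicates 2 and 3. The part of the different thresholds of the lists in these patterns was not tested.

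Strength was then compared between the groups at the 20 regions called in every library. Folds were ranked within each library over all 19683 such regions of the genome, turned to normal scores, and fitted in limma, and p-values were adjusted over all of them by Benjamini and Hochberg's method. None of the 20 ranked higher or lower in Dek_cKO at adjusted p under 0.05, and none reached an unadjusted p under 0.05. Over all regions 0% were called in either direction, and 0.442% reached an unadjusted p under 0.05. Blocking on replicate number, limma called 1 region of the genome (0.00508%) and none of the 20. In that fit none of the 20 had an unadjusted p under 0.05, against 4.44% of all regions. The score was higher in Dek_cKO at 10 and lower at 10, with a median difference of 0.010, against -0.018 over all regions.

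**Figure D4:**
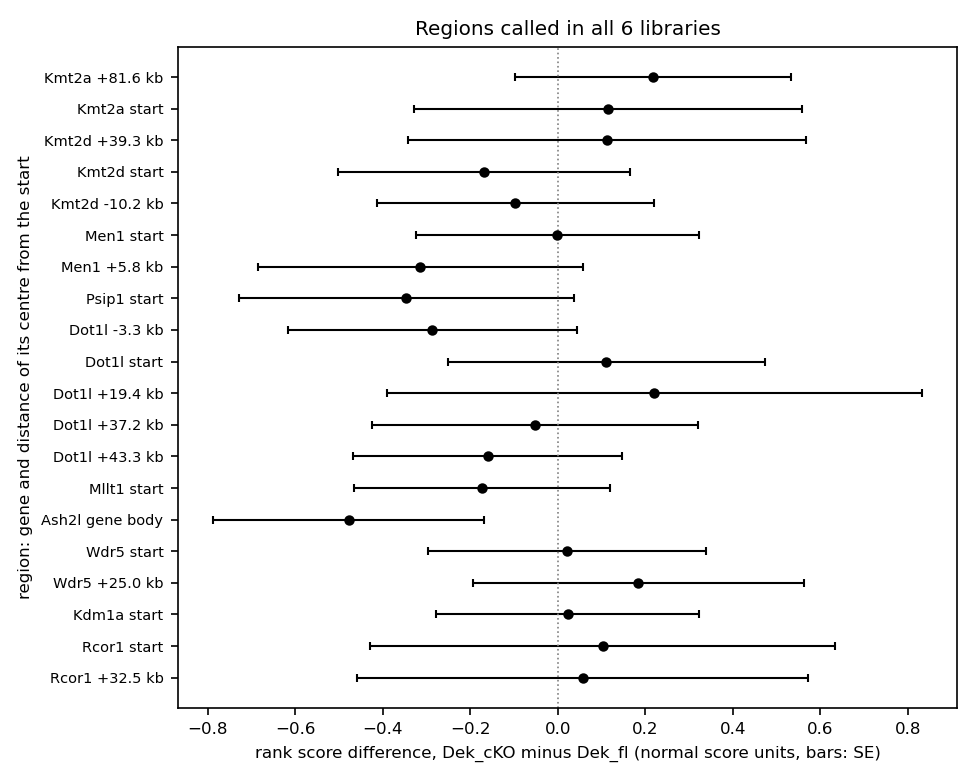
Rank score difference, Dek_cKO minus Dek_fl, in normal score units (x axis, bars are SE from limma, n = 3 libraries per group) for the 20 regions called in all 6 libraries (y axis, gene and distance of the region's centre from the start). All bars but that of the Ash2l gene body cross 0.

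The differences ran from -0.48 (SE 0.31), in the body of Ash2l, to 0.22 (SE 0.61), in the body of Dot1l. In this fit, without a block, the Ash2l region was the only one whose difference exceeded its SE. With the replicate block the same held at the Psip1 start (-0.35, SE 0.28) and the Men1 end shared with Map4k2 (-0.31, SE 0.27). It also held at the Dot1l flank region from 80751218 to 80752569 (-0.29, SE 0.28), chosen after its values were seen, and at no region that was higher in Dek_cKO. The Ash2l scores were 0.67, 0.71 and 0.21 in Dek_cKO replicates 1, 2 and 3, and 1.11, 1.19 and 0.73 in Dek_fl. All Dek_cKO scores of this region lay below all its Dek_fl scores, as was the case for 2.27% of the tested regions. That order fixes the sign within any subset of the libraries. The difference was -0.46 within replicates 1 and 2 and -0.52 within replicate 3. The region did not pass (limma adjusted p = 1.0, unadjusted p = 0.16, or 0.088 with the replicate block). Of the other 19 regions, none had scores that separated the groups, which 2.1% of all regions did toward Dek_cKO.

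At the starts, the difference was 0.12 (SE 0.44) for Kmt2a, -0.17 (SE 0.33) for Kmt2d and 0.11 (SE 0.36) for Dot1l. For the tethering and reader genes it was -0.0012 (SE 0.32) at Men1, -0.35 (SE 0.38) at Psip1 and -0.17 (SE 0.29) at Mllt1. It was 0.021 (SE 0.32) at Wdr5, 0.023 (SE 0.30) at Kdm1a and 0.10 (SE 0.53) at Rcor1. None passed, each with a limma adjusted p of 1.0, and the SEs leave shifts of this size unresolved. Within replicates 1 and 2 and within replicate 3, 4 of the 20 regions were higher in Dek_cKO in both, 7 were lower in both and 9 changed sign. Men1 was among those that changed sign, at 0.35 within replicates 1 and 2 and -0.70 within replicate 3, as was Kdm1a, at 0.21 and -0.35.

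Other genes of the same complexes gave a comparison. A list of 40 held further methyltransferases and subunits (such as Kmt2b, Setd1a and Rbbp5), elongation partners (Aff4, Cdk9) and CoREST partners (Hdac1, Gfi1b). Of these, 36 had a start peak in all 6 libraries, against 50.4% of protein-coding genes. The 4 others were Ncoa6, with none in any library, Mllt6 (2 Dek_cKO and 2 Dek_fl libraries), and Rcor2 and Gfi1b (each 2 Dek_cKO and 3 Dek_fl). Of 43 start regions of 37 list genes called in every library, 6 had a higher and 37 a lower rank score in Dek_cKO, with a median difference of -0.15. Here the merged region, and not each library's own peak, had to lie within 1 kb of a start, so Mllt6 is among the 37 genes. Over the 10212 tested regions at starts of protein-coding genes, 60.1% were lower, with a median of -0.062. None of the 43 passed the limma test at adjusted p under 0.05 or, without a block, reached an unadjusted p under 0.05. With the replicate block none passed either, and 1, at Rbbp5, had an unadjusted p under 0.05, against 4.44% of all regions. The largest negative difference and the largest positive one were at Rbbp5, a core subunit gene (-0.56, SE 0.35), and at Rcor3, a relative of Rcor1 (0.23, SE 0.30, with -0.38, SE 0.46, at a second start region), each with a limma adjusted p of 1.0.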

How the data were processed

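ATAC-seq was measured in 6 libraries, 3 Dek_cKO and 3 Dek_fl. The authors deposited 1 narrowPeak list per library, made with Bowtie2, Picard and MACS2 on mm10 per the submitters' processing notes; versions, settings and any Tn5 shift were not stated in any label. The deposited columns are a score, a fold (ratio over local background), a −log10 p, a −log10 q and a summit offset. The deposited score is 10 times −log10 q in replicates 1 and 2 and 10 times −log10 p in replicate 3, within 1 unit, in 100% of peaks.

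Regions come from merging peaks (chromosomes 1 to 19 and X) that shared at least 1 bp, and a library's peak of highest fold stood for it in a region. Coordinates are 1-based. Percentiles were taken within lists. Normal scores were fitted with limma 3.58.1 (R 4.3.3), checked on simulated scores, without a block. Deviations of same-numbered libraries from their group means correlated at 0.27, 0.52 and 0.74 across regions. In replicates 1 and 2, libraries of different number correlated no less (0.31 and 0.57). These values thus set replicate 3 apart but do not show that replicates 1 and 2 are paired by number. Comparisons by number and the replicate block take the pairing as given.

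The text covers, per gene, the start region and up to 3 further regions, of highest mean percentile with uncalled set to 0; others are said to be chosen after their values were seen. The genes and lists were chosen with earlier results of these data known. Alternatives were rank by p, a replicate block, a term for replicate 3 against replicates 1 and 2, equal-length lists and −log10 q of at least 10. Further ones were overlap of 50%, flanks of 0 and 20 kb, starts within 500 bp, replicates 1 and 2 alone, replicate 3 alone, and leaving out each library. The labels name no batch, and the split of replicate 3 from replicates 1 and 2 follows the lists. Exons were not annotated. Some marker genes are not reported here.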

Additional observations from a re-analysis of the deposited data

How the results depend on the processing

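None of the 20 regions of the 10 genes, nor any start region of the 40 further genes, passed in any fit: with a replicate block 0 ranked higher and 0 lower, and the block changed no call. Uncalled differences at starts changed sign in some settings. Ranked by −log10 p, the difference was 0.14 at Men1, -0.11 at Wdr5 and -0.0049 at Kdm1a, and in equal-length lists it was 0.037 at Men1. Leaving out 1 library gave -0.28 to 0.47 at Kmt2a, -0.42 to 0.47 at Rcor1, -0.31 to 0.084 at Kmt2d, -0.15 to 0.18 at Men1, -0.12 to 0.37 at Dot1l, -0.092 to 0.20 at Wdr5 and -0.077 to 0.18 at Kdm1a, with the lowest values at Kmt2a and Rcor1 without Dek_cKO replicate 3, and kept the sign at Psip1 (-0.66 to -0.099) and Mllt1 (-0.31 to -0.081); at the Ash2l gene-body region it gave -0.59 to -0.32. In replicate 3 alone, 3 regions were called in Dek_cKO only and 1 in Dek_fl only, against 0 and 0 in the other settings, and the difference in genes with a start peak was -1, against -0.33 over all libraries and 0.67 with starts within 500 bp. The log2 ratio of peaks in the windows, 0.055, lay between -0.15 and 0.25 when 1 library was left out. Depth is unknown, so low regions may be missed. The causes were not tested.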
